A study of Homo sapiens with 8 samples.

Results

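Divergent promoter transcripts are long non-coding RNAs (lncRNAs) that start at the promoter of a coding gene and run away from it on the opposite strand. They carry the name of that gene with the ending -DT. The transcripts described here are the lncRNA genes of GENCODE v44 with such a symbol that had at least 160 counts summed over all 8 libraries, and were thus selected on abundance, with 5 of the 8 libraries from knockdown cells. This favours transcripts that are high in the knockdowns, and 12 of the 179 had fewer than 60 counts over the control libraries. Of 577 DT genes listed, 515 had at least 1 read and 179 reached this count, 336 had reads below it and 62 had none. The whole table listed 60725 genes, of which 33854 had reads. Just inside the limit lay TRIM8-DT and COPB2-DT with 160 and 161 counts, and just outside it PELP1-DT and VIRMA-DT with 157 and 156.

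Active mammalian promoters commonly initiate RNA polymerase II (PolII) in both directions. Upstream antisense transcription usually ends early, often at a poly(A) signal or by action of the Integrator complex, and much of its RNA is degraded by the nuclear exosome, whereas U1 snRNP bound to 5′ splice sites protects the coding direction from early termination. NELF (negative elongation factor), a complex that includes NELFE and NELFB, holds PolII shortly after initiation together with DSIF, and acts on both directions of such promoters.

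The libraries came from HAP1, a near-haploid human leukaemia-derived line that grows attached, in 1 monoclonal line (SC9) carrying dCas9-KRAB, a nuclease-dead Cas9 fused to a repressor domain and driven by the EF1a promoter. All groups carried this fusion and received a lentiviral guide RNA, against ADAM22 in the 3 control libraries, against NELFE in 3 libraries and against NELFB in 2. RNA was extracted 144 h after transduction, and libraries of polyadenylated RNA held 22037423 to 24444185 counts each. Per-library levels are given as TMM-normalized counts scaled to a common library size (CPM), and levels of different genes are compared only as TPM, which also account for gene length. In bulk RNA a lower share of expressing cells and less RNA per cell cannot be told apart.

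The targeted genes were low in the libraries labelled as their knockdowns. NELFE had 58, 55 and 64 counts in the NELFE knockdown against 1262, 1115 and 1098 in control, and fell by 4.26 on the log2 scale (edgeR, adjusted p = 2.15e-08). NELFB had 74 and 65 counts in the NELFB knockdown against 1858, 1640 and 1807 in control, and fell by 4.69 (edgeR, adjusted p = 4.02e-09). ADAM22, the target of the control guide, had 342, 291 and 257 counts in control and 642 to 1102 in the knockdown libraries, so this gene has no untargeted reference here. Markers of adherent cells were present in control, with 311 TPM of VIM, the intermediate filament vimentin, 65.3 TPM of the cadherin CDH2 and 38.5 TPM of the keratin KRT18. The epithelial marker EPCAM stood at 0.332 TPM. Of 7 blood cell markers only the progenitor antigen CD34 had enough counts to be tested, at 0.0441 TPM in control.

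One library stood apart. Control replicate 1 was the highest of the 3 control libraries for 116 of the 179 DT transcripts, whereas control replicates 2 and 3 were highest for 35 and 28. The summed level of the DT transcripts was 824 CPM in control replicate 1, against 670 and 654 CPM in the other control libraries. It was 772, 818 and 752 CPM in the NELFE knockdown and 769 and 800 CPM in the NELFB knockdown, so all 5 knockdown libraries lay between control replicate 1 and the other controls. The summed level of the 179 coding partners was lowest in control replicate 1, at 13907 CPM, and reached 15179 and 15546 CPM in control replicates 2 and 3. The share of counts on mitochondrial genes was also highest among the controls in replicate 1, with 4.62% in control replicate 1, 3.72% and 3.48% in the other controls and 4.26% to 5.01% in the knockdowns. Its part in the results was not tested. The main counts of calls and ratios are given below with and without this library. Other counts, among them those of the gene lists, are given with it.

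**Figure D1:**
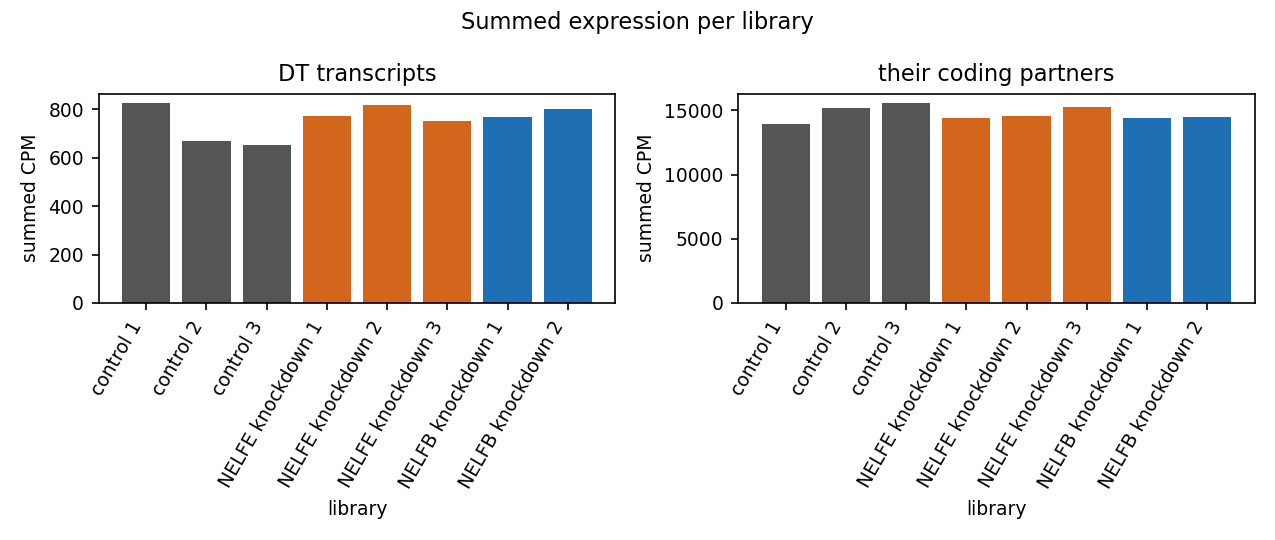
Summed TMM-normalized CPM (vertical axis, starting at 0) of the 179 DT transcripts (left) and their 179 coding partners (right) in each of the 8 libraries, 1 bar per library, grey for control, orange for NELFE knockdown and blue for NELFB knockdown. The DT sum is 824 CPM in control 1 and 670 and 654 CPM in controls 2 and 3, with the knockdown libraries between 752 and 818 CPM.

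All 179 DT transcripts lay on the chromosome of their coding partner and on the opposite strand. The annotated start sites were within 1 kb in 163 pairs, with a median distance of 171 bases, and in 14 pairs the first parts of both genes overlapped. The canonical transcript had a single exon in 52 of the 179. Levels were low: the median over the DT transcripts was 3.41 TPM in control, against 31.3 TPM for the coding partners, and the DT transcript was the less abundant of the pair in 164 of 179 cases, with a median ratio of 8.18. The counts were made without strand. Exon bases were shared with another gene in 82 DT transcripts, in 51 of them with the partner itself, and the counts of these are uncertain. The other 97 shared none.

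Abundant DT transcripts in control included EMSY-DT with 45.8 TPM, MRPL20-DT with 36.2, PAXIP1-DT with 33.4, TBC1D22A-DT with 30.9 and C2orf49-DT with 25.3 TPM. MRPL20 encodes a subunit of the mitochondrial ribosome and PAXIP1 a protein of histone methyltransferase complexes and of the DNA damage response. EMSY-DT, PAXIP1-DT and TBC1D22A-DT exceeded their partners, which stood at 21.0, 28.6 and 11.4 TPM. Of these 5, only TBC1D22A-DT passed the test in the knockdowns (below). PAXIP1-DT had 23.8, 17.2 and 14.8 CPM in control, 19.4, 23.3 and 17.8 in the NELFE knockdown and 16.7 and 17.9 in the NELFB knockdown. Here control replicate 1 was above every other library, and the groups overlapped. PAXIP1 itself fell by 0.36 (edgeR, adjusted p = 0.00475).

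The promoters of the pairs were rich in CpG. A window of 300 bases, from 250 before to 50 after the start, held a median of 31 CpG at the DT starts and 32 at the starts of the partners, compared with 28 for protein-coding genes tested and 10 for other lncRNA genes. The stretch between both start sites is printed below for 5 pairs described in this section. Only stretches of at most 300 bases without an annotated exon were eligible, so their lengths do not describe the other pairs. All are from GRCh38, read 5′ to 3′ on the strand of the coding gene, so that the DT transcript starts beyond the left end, on the opposite strand, and the coding gene beyond the right end. The first 3 belong to DT transcripts that were higher in the knockdowns. They are the whole gaps at chr16:66751610-66751751 (minus strand, 142 bases, 25 CpG), chr2:181891664-181891729 (plus strand, 66 bases, 13 CpG) and chr7:140176984-140177183 (minus strand, 200 bases, 43 CpG). The last 2 belong to DT transcripts that decreased. They are the whole gap at chr2:74833988-74834126 (plus strand, 139 bases, 20 CpG) and the 234 bases of a longer gap that no annotated exon covers, at chr7:155297542-155297775 (plus strand, 38 CpG). Capitals mark the CCAAT box, CCAAT on either strand, a motif that was added after the sequences had been seen.
DYNC1LI2-DT to DYNC1LI2: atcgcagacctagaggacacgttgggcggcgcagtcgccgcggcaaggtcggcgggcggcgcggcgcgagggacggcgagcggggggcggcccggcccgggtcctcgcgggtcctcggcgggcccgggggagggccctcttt
ITPRID2-DT to ITPRID2: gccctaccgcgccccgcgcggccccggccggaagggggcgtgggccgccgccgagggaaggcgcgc
KDM7A-DT to KDM7A: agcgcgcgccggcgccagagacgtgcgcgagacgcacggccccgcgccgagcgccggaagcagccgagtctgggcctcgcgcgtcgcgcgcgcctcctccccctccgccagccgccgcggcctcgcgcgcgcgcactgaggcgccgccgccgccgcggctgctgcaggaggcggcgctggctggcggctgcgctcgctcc
HK2-DT to HK2: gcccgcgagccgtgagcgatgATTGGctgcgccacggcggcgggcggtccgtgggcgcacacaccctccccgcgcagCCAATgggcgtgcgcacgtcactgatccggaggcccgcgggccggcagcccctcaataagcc
INSIG1-DT to INSIG1: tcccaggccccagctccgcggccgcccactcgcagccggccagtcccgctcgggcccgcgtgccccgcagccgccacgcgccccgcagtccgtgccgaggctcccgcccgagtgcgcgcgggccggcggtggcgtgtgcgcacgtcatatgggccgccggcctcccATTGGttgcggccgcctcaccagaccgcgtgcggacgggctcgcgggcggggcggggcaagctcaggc

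The HK2 gap holds 2 CCAAT boxes, in opposite orientations, and the INSIG1 stretch holds 1. A CCAAT box lay in the 300-base window of 31.3% of the DT transcripts, 37.4% of the partners and 35.4% of all 16153 genes tested with a symbol, so its share at DT starts was no higher than elsewhere. Other motifs were searched on both strands, and no motif contains another. The YY1 motif AANATGGC was found in 12.3% of DT windows against 9.81% of all genes tested, the ETS motif CCGGAAGT in 13.4% against 7.47%, the NRF1 motif (GCGC, any base, TGCGC) in 15.1% against 10.2% and the TATA box TATAAA in 2.79% against 6.93%. The AP-1 motif TGANTCA lay in 1.68% against 4.11%, the cyclic AMP response element TGACGTCA in 2.79% against 2.93% and the amino acid response motif TGATGNAA in 1.68% against 1.87%. The coding partners held the YY1 motif in 13.4% of windows, the ETS motif in 14.0% and the NRF1 motif in 16.8%, each slightly above the DT share. Their shares were 3.91% for the TATA box, 1.12% for AP-1, 3.35% for the cyclic AMP response element and 1.68% for the amino acid response motif. These shares are descriptions of letters in a window, not of binding.

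The poly(A) signal AATAAA was more frequent after the start of the DT transcripts than after the start of their partners. Over the first 1000 bases of the transcribed strand, introns included, DT transcripts held 0.553 matches per kb and partners 0.196, and at least 1 match was found in 35.2% of DT transcripts and 15.6% of partners. The DT side held more matches in 56 pairs, the partner side in 18, and 105 pairs were equal. Protein-coding genes tested had 0.231 per kb and other lncRNA genes 0.615, so the DT density was between these classes and nearer to other lncRNAs. The splice donor GTAAGT differed less, with 0.168 per kb on the DT side and 0.151 on the partner side, and 20 pairs had more on the DT side, 17 on the partner side and 142 equal numbers. DT transcripts that increased held 0.621 poly(A) signals per kb (n = 29), those that decreased 0.400 (n = 10) and the rest 0.550 (n = 140). The value of the decreased transcripts rests on 4 matches in 2 of them, 3 of these in HK2-DT.

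The first poly(A) signal downstream of the DT start is shown for 4 of the DT transcripts described below, as examples of how near the start it lies, with 20 bases on each side and the first AATAAA in capitals. All 4 lie in DT exons and in no coding exon. In the HK2-DT stretch, further matches follow directly in lower case. Sequences are from GRCh38 on the DT strand, at chr3:71585052-71585097 (plus), chr2:74833389-74833434 (minus), chr16:66752447-66752492 (plus) and chr7:140177965-140178010 (plus), in the order printed.
FOXP1-DT: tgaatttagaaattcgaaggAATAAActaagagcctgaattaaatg
HK2-DT: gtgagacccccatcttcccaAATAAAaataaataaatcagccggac
DYNC1LI2-DT: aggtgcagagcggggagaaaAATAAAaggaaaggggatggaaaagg
KDM7A-DT: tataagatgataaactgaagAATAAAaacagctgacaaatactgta

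These signals begin 129, 573, 715 and 801 bases from the DT start, respectively. The first 1000 bases held 4 signals for FOXP1-DT against 0 for FOXP1 and 3 for HK2-DT against 0 for HK2. DYNC1LI2-DT had 1 against 0, and KDM7A-DT and KDM7A had 1 each.

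The first comparison set all 5 knockdown libraries against the 3 controls. Of the 179 DT transcripts, 29 rose and 10 fell (edgeR quasi-likelihood test, adjusted p under 0.05), and 140 did not pass. All 179 passed the filter on low counts. Of the 12 with fewer than 60 control counts, 6 were called increased and 0 decreased. These were DYNC1LI2-DT, FIGNL2-DT, ITPRID2-DT, RPP38-DT, EXO5-DT and CDK13-DT, which reached the limit through the knockdown libraries, so their values are given as a description. With the limit set on the control libraries alone, at 60 counts, 172 DT transcripts would be included, 167 of them among the 179. Of these 172, 23 increased (13.4%) and 12 decreased (6.98%), with a median log2 fold change of 0.07. The share of increases is then that of all genes (13.3%), but this limit in turn favours transcripts that are high in the controls. The 29 increases were 16.2% of the DT transcripts, against 13.3% of all 16367 genes tested, and the decreases 5.59%, against 12.7%. At the level of the whole group the shift was small, with a median log2 fold change of 0.11, compared with -0.00 for all genes, and 61.5% of DT transcripts were on the positive side. Other lncRNA genes with the same minimum count gave close values, with 18.3% increased, 6.82% decreased and a median of 0.11 (n = 1143), whereas protein-coding genes had 13.4% increased and 15.2% decreased. The split of the DT transcripts was thus close to that of other lncRNAs, and no test set the classes against each other.

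Changes were moderate. Increased DT transcripts had a median fold change of 1.72, with 19 above 1.5-fold and 6 above 2-fold, and decreased ones a median fold decrease of 1.5, with 5 above 1.5-fold and 0 above 2-fold. Of the 6 increases above 2-fold, 3 were DT transcripts that reach the count limit only through the knockdown libraries, and the 23 increases with at least 60 control counts had a median of 1.68, with 13 above 1.5-fold. In 32 DT transcripts (17.9%, against 14.8% of all genes tested) every knockdown library was above every control library, and in 12 (6.70%, against 14.0%) every knockdown library was below. The group was sensitive to control replicate 1. Without it, 34 DT transcripts rose (19.0%, against 12.8% of all genes) and 3 fell (1.68%, against 12.6%), 25 of the 29 increases were shared, and the median log2 fold change was 0.22. Without control replicate 2 there were 13 increases (7.26%, against 8.09% of all genes) and 5 decreases (2.79%, against 7.90%), and without control replicate 3 there were 14 (7.82%, against 8.92%) and 6 (3.35%, against 8.91%). The share of increases was thus above that of all genes without control replicate 1 and below it without either of the other controls. Other lncRNA genes with the same minimum count also differed from all genes without control replicate 1, with 18.0% increased and 4.72% decreased. Omission of NELFE replicate 1 or 2 left 22 and 5 or 18 and 6, and omission of NELFB replicate 1 or 2 left 19 and 5 or 16 and 6. The share of increases was above that of all genes without NELFE replicate 1 (12.3%, against 10.7%) or NELFB replicate 1 (10.6%, against 9.82%). It was below without NELFE replicate 2 (10.1%, against 11.1%) or NELFB replicate 2 (8.94%, against 10.3%). Omission of NELFE replicate 3 left 30 increases (16.8%, against 15.5%) and 8 decreases (4.47%, against 15.9%). Calls in all 8 fits that omit 1 library each were made for 10 increases and 2 decreases. These increases include DYNC1LI2-DT, FIGNL2-DT and ITPRID2-DT, which reached the count limit through the knockdown libraries. No share of all genes with such calls is given, so these 2 counts are not read against a background.

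PDCD6IP-DT (ENSG00000271643, chr3:33793644-33798539, minus strand) shares its promoter with PDCD6IP, which encodes ALIX, an adaptor of ESCRT-dependent membrane scission. It had 1.04, 1.78 and 1.48 CPM in control, 4.87, 4.32 and 4.93 in the NELFE knockdown and 5.61 and 4.04 in the NELFB knockdown. Every knockdown library was well above the highest control, and the 2 knockdowns overlapped. The log2 fold change was 1.73 ± 0.20 (SE; edgeR, adjusted p = 0.00027), and it was 1.54 without control replicate 1. The coding gene did not move with it, at 179 ± 9.5 CPM in control (SD, n = 3), 176 ± 1.7 in the NELFE knockdown (n = 3) and 180 ± 3.2 in the NELFB knockdown (n = 2), a log2 difference of -0.01.

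DYNC1LI2-DT (ENSG00000246777, chr16:66751752-66754740, plus strand) lies opposite DYNC1LI2, which encodes a light intermediate chain of cytoplasmic dynein, and its exons overlap those of TERB1. It had 0.161, 0.399 and 0.436 CPM in control, from 4, 9 and 10 counts. It had 1.25, 1.43 and 2.19 CPM in the NELFE knockdown and 0.873 and 1.19 in the NELFB knockdown, so the groups did not overlap. The log2 difference was 2.05 ± 0.39 (SE), with no test given, since its 23 control counts of 182 in all mean that it was included through the knockdown libraries. DYNC1LI2 itself rose by 0.22 (adjusted p = 0.0454), and this call was lost in 7 of the 8 fits that omit 1 library, including the fit without control replicate 1 (0.13, adjusted p = 0.135).

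FIGNL2-DT (ENSG00000259887, chr12:51848223-51852729, plus strand) had 0.401, 0.399 and 0.131 CPM in control, 1.21, 1.08 and 0.651 in the NELFE knockdown and 1.08 and 1.96 in the NELFB knockdown. All knockdown libraries were above the controls, with a log2 difference of 1.92 ± 0.43. With 22 control counts of 162 in all, it too was included through the knockdown libraries. Its partner FIGNL2, a microtubule-severing ATPase related to fidgetin, was at 0.282 TPM in control and below 160 counts in all, and 24 exon bases are shared between both, so reads of this pair are hard to assign.

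ITPRID2-DT (ENSG00000260742, chr2:181887851-181891663, minus strand) and KDM7A-DT (ENSG00000260231, chr7:140177184-140179640, plus strand) are single-exon transcripts that overlap no other exon. ITPRID2-DT had 0.602, 0.621 and 0.261 CPM in control, 1.12, 1.25 and 1.35 in the NELFE knockdown and 1.33 and 1.19 in the NELFB knockdown. All 5 knockdown libraries lay close together above the controls, with a log2 difference of 1.32 ± 0.28, again in a transcript with few control counts, 35 of 180. ITPRID2, whose product binds the inositol trisphosphate receptor, differed by 0.01. KDM7A-DT had 1.69, 1.69 and 0.959 CPM in control, 3.58, 3.63 and 2.33 in the NELFE knockdown and 4.32 and 4.0 in the NELFB knockdown. Its lowest knockdown library, NELFE replicate 3, was still above the highest control, and the log2 fold change was 1.30 ± 0.25 (edgeR, adjusted p = 0.00371). KDM7A, a histone demethylase, had a log2 difference of 0.30 that did not pass (adjusted p = 0.288). Without control replicate 1 it was 0.57 and passed (adjusted p = 0.0472).

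EOLA1-DT (ENSG00000241769, chrX:149527591-149540959, minus strand) had 1.28, 1.46 and 1.13 CPM in control, 3.29, 3.07 and 2.37 in the NELFE knockdown and 3.45 and 3.23 in the NELFB knockdown. The spread within each group was small against the step between them, at 1.25 ± 0.19 on the log2 scale (edgeR, adjusted p = 0.00115). It shares 347 exon bases with EOLA1, which differed by -0.13 and did not pass.

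FOXP1-DT and EXO5-DT stood out less. FOXP1-DT (ENSG00000270562, chr3:71584943-71587409, plus strand) had 0.602, 0.976 and 1.35 CPM in control, 1.75, 2.51 and 1.58 in the NELFE knockdown and 1.41 and 2.42 in the NELFB knockdown, and the lowest knockdown library was just above the highest control. Its log2 fold change was 0.99 ± 0.29 (edgeR, adjusted p = 0.0289), and without control replicate 1 it no longer passed (0.73, adjusted p = 0.0882). FOXP1, a forkhead transcription factor, fell by 0.26 (adjusted p = 0.0272), the only partner that fell beside an increased DT transcript. The FOXP1 call was made in 4 of the 8 fits that omit 1 library. EXO5-DT (ENSG00000238287, chr1:40493157-40508661, minus strand), beside the DNA repair exonuclease gene EXO5, had 0.803, 0.710 and 0.305 CPM in control against 0.915 to 1.40 in the knockdowns. The log2 difference was 0.97 ± 0.30, from 43 control counts of 182 in all.

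The decreases were smaller. CABP1-DT (ENSG00000256008, chr12:120628830-120641591, minus strand) lies at the gene of a neuronal calcium-binding protein, and the first parts of both genes overlap. It had 2.69, 2.35 and 2.18 CPM in control, 1.46, 1.25 and 1.12 in the NELFE knockdown and 1.29 and 1.11 in the NELFB knockdown. Each knockdown library was well below each control, and the transcript fell by 0.95 ± 0.18 on the log2 scale (edgeR, adjusted p = 0.00319) in the same range without any single library (0.86 to 1.01 as a decrease). CABP1 itself had 1.53 ± 0.51 CPM in control and a log2 difference of 0.20 that did not pass.

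INSIG1-DT (ENSG00000273117, chr7:155295918-155297541, minus strand) fell together with INSIG1, whose product retains the SREBP activator SCAP in the endoplasmic reticulum when sterols are abundant. INSIG1-DT had 2.53, 1.42 and 1.35 CPM in control, 0.874, 0.691 and 0.791 in the NELFE knockdown and 1.04 and 1.19 in the NELFB knockdown. Control replicate 1 was far above the other controls. The fall of 0.95 ± 0.27 (edgeR, adjusted p = 0.0232) became 0.59 without that library and did not pass (adjusted p = 0.106). INSIG1 had 85.1, 60.2 and 69.7 CPM in control, 40.5 to 45.1 in the NELFE knockdown and 45.6 and 50.8 in the NELFB knockdown. It fell by 0.67 ± 0.11 (edgeR, adjusted p = 0.00147) and passed without control replicate 1 (adjusted p = 0.00353).

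HK2-DT (ENSG00000272711, chr2:74832655-74833987, minus strand) accompanies HK2, hexokinase 2, which phosphorylates glucose at the entry to glycolysis. It had 5.74, 6.48 and 7.10 CPM in control, 4.20, 5.10 and 4.51 in the NELFE knockdown and 3.78 and 4.29 in the NELFB knockdown, with no overlap. The fall was 0.56 ± 0.14 (edgeR, adjusted p = 0.0135), a call made in 7 of the 8 fits that omit 1 library and not without control replicate 3 (adjusted p = 0.0617). HK2 stood at 178 ± 33, 159 ± 16 and 136 ± 13 CPM in the same order, a log2 difference of -0.25 that did not pass (adjusted p = 0.167).

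RNASEH1-DT (ENSG00000234171, chr2:3558419-3564842, plus strand) had 8.67, 8.79 and 9.15 CPM in control, 6.12, 5.14 and 7.12 in the NELFE knockdown and 6.03 and 6.29 in the NELFB knockdown. It fell by 0.53 ± 0.12 (edgeR, adjusted p = 0.0101), a call made in all 8 fits that omit 1 library. RNASEH1, which degrades the RNA strand of RNA-DNA hybrids, also fell, by 0.30 (adjusted p = 0.0306). Its call was made in 2 of these 8 fits, among them the fit without control replicate 1 (adjusted p = 0.0071).

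TNFRSF10A-DT (ENSG00000246582) and TNFRSF10A, a death receptor for TRAIL, fell by 0.62 ± 0.17 and 0.46 ± 0.09 (edgeR, adjusted p = 0.019 and 0.0041), and they share 266 exon bases. TNFRSF10A-DT had 6.34, 5.24 and 4.66 CPM in control and 2.95 to 4.28 in the knockdowns, and did not pass without control replicate 1 (adjusted p = 0.0573). ZDHHC12-DT (ENSG00000223478, chr9:128724435-128733199, plus strand) had 1.97, 1.78 and 2.05 CPM in control and 1.11 to 1.47 in the knockdowns. Its fall of 0.52 (adjusted p = 0.0482) was lost in all 8 fits that omit 1 library, whereas ZDHHC12, a palmitoyltransferase, fell by 0.44 (adjusted p = 0.014) and was called in all 8. HEATR5A-DT (ENSG00000250365, chr14:31420286-31452883, plus strand), whose exons overlap those of HEATR5A and DTD2, fell by 0.64 (adjusted p = 0.0481). TBC1D22A-DT (ENSG00000260708, chr22:46761893-46762564, minus strand) fell by 0.42 (adjusted p = 0.0484). Each of these last 2 calls was made in 1 of the 8 fits, and neither was made without control replicate 1.

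**Figure D2:**
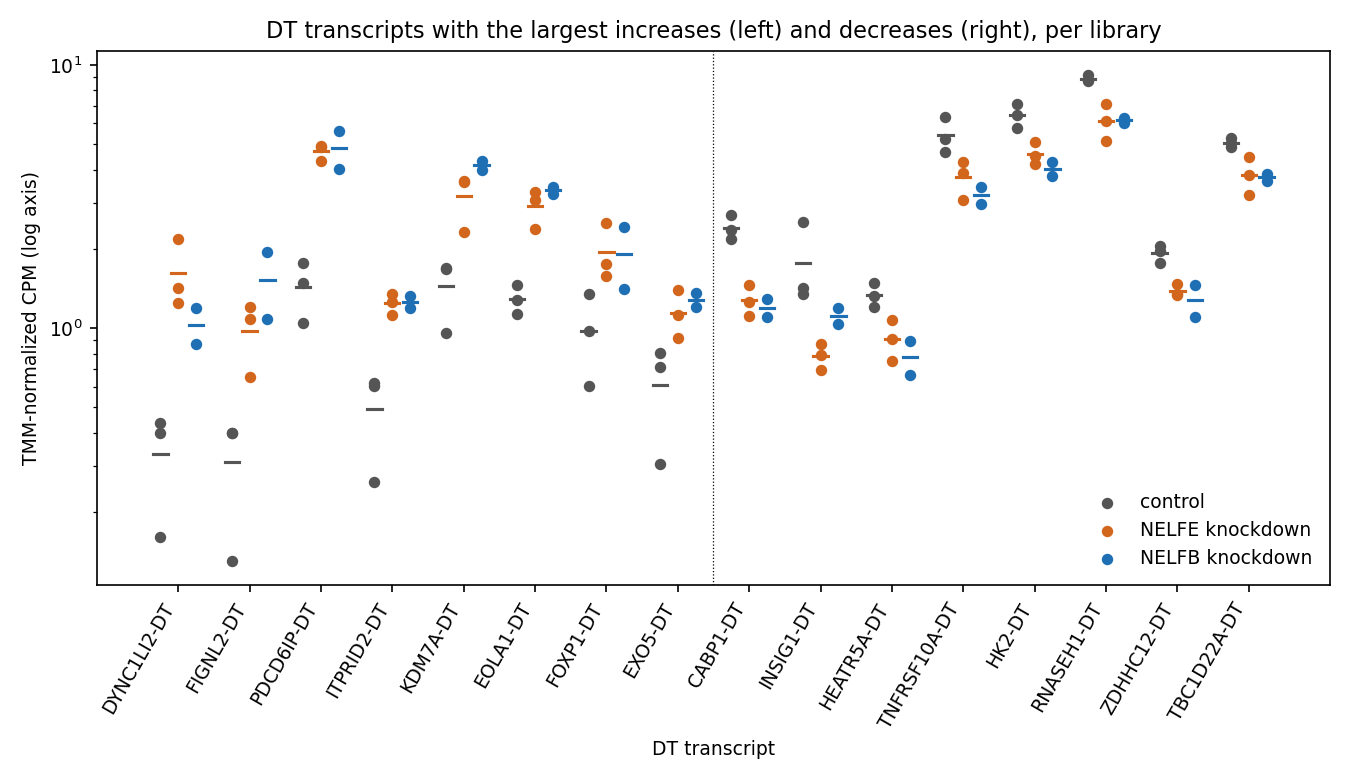
TMM-normalized CPM on a log axis (vertical) of the 8 DT transcripts with the largest increases (left of the dotted line) and the 8 with the largest decreases (right) among called DT transcripts whose knockdown and control libraries do not overlap. Each point is 1 library, short lines are group means, and grey, orange and blue are control, NELFE and NELFB knockdown; the step is widest for DYNC1LI2-DT, from 0.161 to 0.436 CPM in control to 0.873 to 2.19 in the knockdowns.

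Each DT transcript was next set beside its coding partner in the same comparison. Of the 177 partners tested, 24 rose (13.6%, against 13.3% of all genes) and 26 fell (14.7%, against 12.7%). Without control replicate 1 these counts were 25 and 25 (14.1% each), where 12.8% of all genes rose and 12.6% fell. Without control replicate 2 they were 19 and 11, where 8.09% of all genes rose and 7.90% fell. Without control replicate 3 they were 21 and 14, where the shares of all genes were 8.92% and 8.91%. Among the 29 increased DT transcripts, 6 had a partner that rose, 1 a partner that fell and 22 a partner that did not pass, and the median log2 fold change of the partners was -0.00, from -0.30 to 0.68. Among the 10 decreased DT transcripts, 4 had a partner that fell (INSIG1, TNFRSF10A, RNASEH1 and ZDHHC12), 0 a partner that rose and 6 a partner that did not pass, with a median of -0.25, from -0.67 to 0.20. Conversely, 18 partners rose and 21 fell beside a DT transcript that was not called. Over the 177 pairs, 97 (54.8%) had log2 fold changes of the same sign, and the correlation was weak (Pearson's r = 0.195, Spearman's rho = 0.171, across pairs, which share the same 8 libraries and are not independent replicates).

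The 6 pairs that rose together were RAB30, BAIAP2, ARNT2, PRKACB, RFX3 and DYNC1LI2, the first 5 of which were singled out after their values had been seen. The DYNC1LI2 pair is listed as a description only. DYNC1LI2-DT was included through the knockdown libraries, and the DYNC1LI2 call was made in 1 of the 8 fits that omit 1 library. RAB30 encodes a Golgi GTPase, and RAB30-DT rose by 0.30 against 0.68 for RAB30. ARNT2 and RFX3 are transcription factors. ARNT2-DT rose by 0.47 and ARNT2 by 0.54, and RFX3-DT by 0.86 and RFX3 by 0.55. For BAIAP2, an adaptor of actin remodelling, the increases were 0.42 and 0.64, and for PRKACB, a catalytic subunit of protein kinase A, 0.50 and 0.36. In these 5 pairs the increases of both members were of the same order, unlike the pairs of PDCD6IP, ITPRID2 and EOLA1.

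The ratio of DT transcript to partner within each library gave a further view that does not depend on library scaling. In 176 pairs with enough counts, the ratio was higher in all 5 knockdown libraries than in all 3 controls for 27 pairs (15.3%) and lower for 11 (6.25%). Among 1353 head-to-head gene pairs of the whole table, taken as the less over the more abundant gene, the shares were 21.0% and 9.31%, so DT pairs were not above this background. Without control replicate 1, 58 ratios were higher (33.0%, against 35.8% of the head-to-head pairs), and without control replicate 3, 23 were lower (13.1%, against 13.3%). The log2 ratio of PDCD6IP-DT to PDCD6IP was -6.97 ± 0.33 in control (SD, n = 3) and -5.22 ± 0.17 in the knockdowns (n = 5). For DYNC1LI2-DT it went from -9.02 ± 0.59 to -7.21 ± 0.44, for ITPRID2-DT from -7.57 ± 0.72 to -6.19 ± 0.12 and for EOLA1-DT from -3.22 ± 0.31 to -1.86 ± 0.28. These 4 pairs and the next 4 were picked for the size of their difference, which is therefore given without a test.

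Among those of the 176 pairs whose libraries did not overlap, the fall of the ratio was largest for CABP1, MVP, FBN1 and HEATR5A. In 2 of these it was the partner that changed. MVP, the main protein of vault particles, had 5.26, 3.20 and 2.96 CPM in control, 7.49, 7.91 and 5.77 in the NELFE knockdown and 8.86 and 8.67 in the NELFB knockdown, and rose by 1.02 (edgeR, adjusted p = 0.00535). MVP-DT (ENSG00000238045, chr16:29808636-29821252, minus strand), whose exons overlap 6 other genes including MAZ, PAGR1 and PRRT2, had 11.4 ± 1.6, 12.2 ± 1.3 and 10.2 ± 0.67 CPM in control, NELFE and NELFB knockdown, a log2 difference of 0.01. FBN1, the extracellular matrix protein fibrillin 1, rose by 0.55 (adjusted p = 0.00387), from 41.1 ± 2.7 CPM in control to 54.9 ± 3.6 in the NELFE and 68.3 ± 4.7 in the NELFB knockdown. FBN1-DT (ENSG00000259705, chr15:48645951-48652016, plus strand) had 1.73, 1.60 and 1.83 CPM in control and 1.08 to 1.5 in the knockdowns, all below control, with a log2 difference of -0.32 that did not pass (adjusted p = 0.229).

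Each knockdown was also set against control on its own, and both comparisons share the control libraries. In the NELFE knockdown 15 DT transcripts rose (8.38%, against 7.92% of all genes tested) and 4 fell (2.23%, against 7.04%). In the NELFB knockdown 15 rose (8.38%, against 10.6%) and 7 fell (3.91%, against 8.88%). With all libraries the share of increases was thus near the background for NELFE and below it for NELFB. The genes tested had a median log2 CPM of 4.28 and the DT transcripts 1.29, so these shares do not compare genes of like abundance. Other lncRNA genes with the same minimum count, at a median of 1.34, had 10.6% increased in the NELFE and 14.2% in the NELFB knockdown. With the limit set on the control libraries alone, which favours transcripts that are high in the controls, 11 of 172 rose in each (6.40%). This was below the share of all genes in both comparisons. Of these 172, 4 fell in the NELFE (2.33%) and 7 in the NELFB knockdown (4.07%). Without control replicate 1, 23 rose in the NELFE knockdown (12.8%, against 8.36% of all genes) and 4 fell (2.23%, against 8.03%). In the NELFB knockdown 27 rose (15.1%, against 13.3%) and 6 fell (3.35%, against 12.6%) in that fit. Other lncRNA genes had 11.7% increased in the NELFE and 19.2% in the NELFB knockdown there. Without control replicate 2 the increases were 6 in the NELFE (3.35%, against 3.92% of all genes) and 9 in the NELFB knockdown (5.03%, against 6.46%). Omission of NELFE replicate 1 left 3 increases in the NELFE comparison (1.68%, against 3.35% of all genes), and omission of NELFE replicate 2 left 4 (2.23%, against 3.86%). In the NELFB comparison omission of replicate 1 left 3 (1.68%, against 2.17%) and omission of replicate 2 left 4 (2.23%, against 4.40%), where the remaining library is assumed to vary like the other groups. The DT share was below that of all genes in each of these 6 counts. In the NELFE comparison it was above without control replicate 3 (6.15%, against 5.52%) and when either NELFB library was omitted. It was below there without NELFE replicate 3 (8.38%, against 9.64%). In the NELFB comparison it was below without control replicate 3 (6.70%, against 7.78%) and when any 1 NELFE library was omitted. Both knockdowns gave a call for 9 increases (5.03%, against 6.63% of all genes) and 2 decreases (1.12%, against 5.48%). PDCD6IP-DT rose by 1.71 in the NELFE and 1.76 in the NELFB knockdown (edgeR, adjusted p = 0.00163 and 0.00138), and KDM7A-DT by 1.13 and 1.52. The log2 differences were 2.28 and 1.64 for DYNC1LI2-DT and 1.64 and 2.26 for FIGNL2-DT. CABP1-DT fell by 0.91 and 1.00, and RNASEH1-DT by 0.54 and 0.52. INSIG1-DT fell by 1.17 in the NELFE knockdown (adjusted p = 0.0265) and differed by -0.67 in the NELFB knockdown, which did not pass (adjusted p = 0.166).

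Directly compared, the knockdowns gave no call among the 179 DT transcripts in edgeR, where 0.315% of all genes passed (0.237% higher in the NELFE and 0.0771% higher in the NELFB knockdown), and 5 had an unadjusted p under 0.05. DESeq2 called 1, ZNF778-DT (ENSG00000259877), which is named here after its values were seen. It had 10.1, 6.70 and 5.45 CPM in control, 8.53, 8.47 and 8.56 in the NELFE knockdown and 4.57 and 2.81 in the NELFB knockdown. The 2 knockdowns did not overlap, and control spanned the NELFE values. The log2 difference of NELFE over NELFB was 1.20 (edgeR, adjusted p = 0.220), and DESeq2 gave 1.21 (adjusted p = 0.00288). In edgeR the difference passed without control replicate 1 (adjusted p = 0.0405). It also passed in edgeR with the replicate number as a block (1.32, adjusted p = 0.00612) and without a filter on low counts (adjusted p = 6.64e-06). The other edgeR alternatives did not call it. ZNF778 itself, a zinc finger gene, had 35.0 ± 1.7 and 35.1 ± 2.1 CPM in the NELFE and NELFB knockdown, against 26.7 ± 3.6 in control.

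Lists of genes that act on divergent transcripts are read against the 13.3% of all genes that rose and the 12.7% that fell in the combined comparison. Of 13 genes of the nuclear exosome, 0 rose and 3 fell, namely EXOSC8 by 0.52, EXOSC2 by 0.29 and EXOSC10, its nuclear catalytic subunit, by 0.26 (edgeR, adjusted p = 0.00255, 0.0271 and 0.0219). The calls of EXOSC2 and EXOSC10 were made in 2 and 4 of the 8 fits that omit 1 library, and that of EXOSC8 in all 8. Of 8 genes of the exosome adaptors NEXT and PAXT, PABPN1, the nuclear poly(A)-binding protein, rose by 0.32 and the NEXT subunit ZCCHC8 fell by 0.33, a call made in 4 of these 8 fits. Of 5 early termination genes 2 rose, ZC3H4, a zinc finger protein that restricts non-coding transcription, by 0.93 ± 0.15 (adjusted p = 0.00166) and the cleavage factor PCF11 by 0.30. The PCF11 call was made in 5 of the 8 fits and not without control replicate 1 (adjusted p = 0.0502). ZC3H4 had 637, 807 and 1027 counts in control and 1305 to 1755 in the knockdowns, without overlap. Of 15 Integrator genes INTS3 rose by 0.33 and INTS2 fell by 0.27, and of 3 U1 snRNP genes SNRPA fell by 0.29. Of 6 NELF and DSIF genes SUPT5H rose by 0.27 (not without control replicate 1, adjusted p = 0.0503) and NELFA fell by 0.36, while NELFE and NELFB did not pass over both knockdowns pooled. Of 6 cap-binding and ARS2 genes none passed, also at the level of each knockdown. Of the adherent cell markers tested, 3 of 4 rose, CDH2 by 0.61, KRT18 by 0.56 and KRT8 by 1.65. Without control replicate 1, KRT18 did not pass (adjusted p = 0.0593). CD34 had 3, 3 and 1 counts in control and 6 to 67 in the knockdowns, through which it passed the filter on low counts. Their part in the changes of DT transcripts was not tested.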

How the data were processed

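The authors aligned single-end reads of 65 bases to GRCh38 (hg38) with STAR 2.5.4a and deposited raw counts per gene of Gencode v24, without strand and without normalization, as 1 table of 8 libraries. Symbols, gene types, exon lengths and start sites were taken here from GENCODE v44 by Ensembl identifier, and sequences from the GRCh38 genome. The main test was the robust quasi-likelihood test of edgeR 4.0.16 (R 4.3.3), after filterByExpr and TMM scaling and with Benjamini-Hochberg adjustment over all genes tested, in 2 groups for the combined comparison and in 3 groups otherwise. DESeq2 1.42.0, other scalings, filters and minimum counts, the replicate block and omission of each library were alternatives. DT-to-partner ratios used a prior of 0.5 counts. On simulated data 93% of genes with a log2 change of 1 were recovered in the combined comparison, with 14 false calls. The changed genes were drawn from all tested genes with at least 160 counts. Genes with that count had a median log2 CPM of 4.84, against 1.29 for DT transcripts, so the recovery of DT transcripts was not measured. The members, gene lists and tests were chosen with earlier results of these data known. Named genes were the guide targets, the 6 most abundant members (1 is not reported here), the 8 called members that rose most and the 8 that fell most, given non-overlapping libraries and a mean log2 CPM no lower than -1, members called between the knockdowns, the 4 pairs in each direction whose log2 fold changes differed most among those with non-overlapping ratios, their partners, and at most 3 called genes per list. The study describes the knockdown replicates as independent biological replicates. The control columns are numbered in the same way, but separate cultures are not stated for them, so p-values measure the spread between these libraries.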

Additional observations from a re-analysis of the deposited data

How the results depend on the processing

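Of 683 values of 46 named genes under the alternatives, none changed sign in a called gene, 605 kept their side of the threshold, 72 no longer passed and 6 newly passed. The balance of partner calls turned from 24 up and 26 down to 19 and 11 without control replicate 2, where 8.09% of all genes rose and 7.90% fell. It turned the same way without control replicate 3, as given above. In the NELFE knockdown it turned from 17 and 12 to 13 and 16 without control replicate 1. There the shares of all genes went from 7.92% up and 7.04% down to 8.36% and 8.03%. With a minimum summed count of 320, which leaves fewer genes, the combined comparison called 18 DT transcripts up, 5 down and 15 partners down. In the NELFE knockdown it called 8 DT transcripts up and 2 down and 11 partners up and 7 down, in the NELFB knockdown 4 DT transcripts and 8 partners down, and 16 ratios were higher and 7 lower. Counts in this section that stand without a share of all genes, such as these, cannot be read against a background. With only the libraries of the comparison, the NELFE knockdown had 2 DT transcripts down, 9 partners up and 7 down. Without a filter on low counts 25 partners fell in the NELFB knockdown. DESeq2, no filter and the replicate block each called 1 DT transcript between the knockdowns. The causes were not tested.

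With the replicate number as a block, 35 DT transcripts rose (19.6%, against 17.1% of all genes) and 8 fell (4.47%, against 17.3%) in the combined comparison, 26 rose in the NELFE knockdown (14.5%, against 14.3% of all genes in that fit), and partners numbered 28 up and 24 down in the NELFE and 29 up and 26 down in the NELFB knockdown. Deviations of same-numbered libraries correlated at 0.36, 0.06 and 0.56 between control and NELFE libraries and between -0.04 and 0.26 in the other pairs. Each control library correlated best with the NELFE library of its number, a hint from the data, but not every NELFE or NELFB library with the control of its number. Neither the labels nor a correlation above 0.1 in every pair shows that the numbers pair the samples.

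Omission of 1 library at a time gave 13 to 34 DT transcripts up and 3 to 8 down, and 19 to 28 partners up and 11 to 35 down, in the combined comparison. The ranges were 3 to 23 and 0 to 5 DT transcripts and 3 to 19 and 5 to 16 partners in the NELFE knockdown, and 3 to 27 and 0 to 9 DT transcripts and 2 to 20 and 3 to 30 partners in the NELFB knockdown. Between the knockdowns 0 to 1 was called, and 28 to 58 ratios were higher and 11 to 23 lower, with 58 higher without control replicate 1. Counts of ratios without overlap, 27 and 11 with all libraries, can only stay or rise when a library is omitted.

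Many DT transcripts have few counts, which limits the precision of their fold changes. Counts without strand leave overlapping pairs uncertain. The pairing of start sites, the exon overlaps and the exon lengths behind TPM rest on gene models newer than those counted. TPM levels, and the order of abundant DT transcripts by TPM, are therefore approximate.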
